A study of Mus musculus with 8 samples.

Results

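Genes of glycolysis and of the response to low oxygen were followed in mouse gonads with and without Kdm6b, which encodes an enzyme that takes methyl groups off histone H3. The group holds 37 genes chosen by function, with earlier results of these data known. They were matched by gene symbol, and all 37 were found among the 48440 genes of the deposited tables. By role they are 4 glucose and lactate transporters, 17 glycolytic enzymes, 6 kinases that regulate glycolysis, 6 targets of hypoxia signalling and 4 regulators of the hypoxia-inducible factor (HIF). The samples were whole gonads at embryonic day 11.5 (E11.5) in 4 groups, which were XY Kdm6b-null, XY wild type, XX Kdm6b-null and XX wild type. Each group had 2 libraries of polyadenylated RNA, made from 2 pooled pairs of gonads apiece. The null is called a Kdm6b knockout in the labels. The sources used here give neither the form of the allele nor the mouse strain. The labels also name pre-Sertoli cells for XY and pre-granulosa cells for XX, but give the tissue as gonad and mention no sorting. Red cell, vessel and macrophage genes were counted in every library (Hbb-y, an embryonic globin, at 28299 to 118333 normalized counts, Cdh5, an endothelial cadherin, at 1998 to 4256, and Csf1r, a macrophage receptor, at 479 to 816), so the values are those of a mixed tissue. In such a tissue fewer cells of a type and less RNA per cell cannot be told apart. Whether pools of 1 group are from separate litters is not in the labels, so the p-values measure the spread between these pools only.

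Glycolysis turns glucose into pyruvate. Pyruvate then enters the mitochondrion, unless pyruvate dehydrogenase kinases close that route, or is reduced to lactate and exported. HIF is a pair of proteins, an oxygen-sensitive alpha subunit encoded by Hif1a or Epas1 and a stable partner encoded by Arnt. In the presence of oxygen the prolyl hydroxylases encoded by Egln1 and Egln3 mark the alpha subunit, and the protein encoded by Vhl sends it for destruction. At low oxygen the pair binds short sequences near its targets, among them most genes of glycolysis and the Egln genes themselves. In the fetal gonad, glucose metabolism is known to rise in pre-Sertoli cells as testis cords form.

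The core sequence that HIF binds, ACGTG or GCGTG on either strand, was looked for in the promoters of the group. Promoter sequences were those of RefSeq on GRCm38.p6, and the 250 bases before each annotated start were searched. Of the 37 genes, 34 had an entry (Slc2a3, Ndrg1 and Epas1 had none), and 30 of the 34, or 88.2%, held at least 1 core, against 41.5% of 27025 genes with a promoter entry. The stricter core ACGTG was in 20 of the 34, or 58.8%, against 18.5% of all. A gene can have several annotated starts. Over single windows the shares were 40 of 50, or 80.0%, in the group against 38.6% of all 32851 windows. CACGTG holds the core on both strands and is counted as 2 matches, and it is also the E-box bound by other factors. Both cores contain the letters CG, and the background of all promoters was not matched to the group for base content or expression. Matches are a description of the letters, and no binding was measured. The promoters below are shown as examples of the roles described: Bnip3, Ankrd37 and Egln3 among the hypoxia targets, Ldha and Pgk1 among the enzymes, and Vhl, whose window held no match. Capitals mark the cores, printed 5′ to 3′ on the strand of the gene.

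Bnip3 (GRCm38.p6, chr7:138909507-138909756, minus strand): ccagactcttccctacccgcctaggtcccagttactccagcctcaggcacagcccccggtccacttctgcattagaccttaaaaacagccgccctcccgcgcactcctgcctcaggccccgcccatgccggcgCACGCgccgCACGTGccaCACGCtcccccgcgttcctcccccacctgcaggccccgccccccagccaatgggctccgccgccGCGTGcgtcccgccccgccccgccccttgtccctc
Ankrd37 (GRCm38.p6, chr8:45999851-46000100, minus strand): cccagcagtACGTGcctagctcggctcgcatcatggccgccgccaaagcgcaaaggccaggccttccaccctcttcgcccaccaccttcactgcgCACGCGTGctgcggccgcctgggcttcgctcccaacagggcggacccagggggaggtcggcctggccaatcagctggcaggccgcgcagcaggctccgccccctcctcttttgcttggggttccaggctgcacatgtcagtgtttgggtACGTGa
Egln3 (GRCm38.p6, chr12:54203875-54204124, minus strand): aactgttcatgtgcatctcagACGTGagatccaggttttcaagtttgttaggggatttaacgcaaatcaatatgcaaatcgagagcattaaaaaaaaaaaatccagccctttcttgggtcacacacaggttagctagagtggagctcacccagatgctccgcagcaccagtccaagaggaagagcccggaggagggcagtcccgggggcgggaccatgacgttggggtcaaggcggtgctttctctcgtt
Ldha (GRCm38.p6, chr7:46845554-46845803, plus strand): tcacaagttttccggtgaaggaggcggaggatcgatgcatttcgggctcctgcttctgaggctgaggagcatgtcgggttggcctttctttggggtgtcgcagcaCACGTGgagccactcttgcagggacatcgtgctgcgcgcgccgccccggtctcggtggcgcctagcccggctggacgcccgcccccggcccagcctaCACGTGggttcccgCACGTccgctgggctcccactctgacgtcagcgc
Pgk1 (GRCm38.p6, chrX:106186850-106187099, plus strand): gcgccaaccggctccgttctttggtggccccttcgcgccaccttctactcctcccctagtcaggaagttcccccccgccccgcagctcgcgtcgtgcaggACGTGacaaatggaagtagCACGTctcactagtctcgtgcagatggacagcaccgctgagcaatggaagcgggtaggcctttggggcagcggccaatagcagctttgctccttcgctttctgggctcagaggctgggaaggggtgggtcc
Vhl (GRCm38.p6, chr6:113623744-113623993, plus strand): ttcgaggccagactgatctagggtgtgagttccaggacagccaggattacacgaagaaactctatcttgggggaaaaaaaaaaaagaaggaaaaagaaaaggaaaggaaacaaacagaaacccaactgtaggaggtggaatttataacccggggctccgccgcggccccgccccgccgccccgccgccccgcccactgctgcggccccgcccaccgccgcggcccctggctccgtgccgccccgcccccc

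These windows held 5, 4, 1, 5, 2 and 0 matches in the order printed. Of the 34 genes, Eno2, Gpi1, Tpi1 and Vhl had no match in any window.

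Each library held 19107103 to 19828638 counts, and a value of 0 allows up to 3 counts, or 2.91 to 3.09 normalized counts. The authors scaled the XY and XX libraries in separate tables, so levels set across the sexes also carry any scale factor between the tables. Kdm6b was the first check of the labels. XY Kdm6b-null libraries held 1238 and 1037 normalized counts, against 3399 and 3181 in XY wild type. XX Kdm6b-null libraries held 1249 and 1125, against 2218 and 2796 in XX wild type. Every null library was therefore below both wild type libraries of its sex, at 34.6% of the wild type mean in XY and 47.4% in XX. The XX wild type libraries were the least alike of the replicate pairs, correlating at 0.963 across genes against 0.980 to 0.985 for the others. XX wild type replicate 1 also held genes of the adrenal cortex, the neighbouring gland. Its summed level of 8 such genes was 2666 normalized counts, against 620.1 to 853 in the other 7 libraries, and Cyp21a1, an adrenal steroid enzyme, had 189 counts there against 0 to 10.9 elsewhere. The main XX values are therefore also given without that library.

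The most abundant genes of the group were enzymes, most of them of the lower pathway. Levels between genes were compared as normalized counts per kilobase (kb) of exon, using exon lengths of GENCODE M21 on GRCm38, which also count exons of rare transcripts. Averaged over the 8 libraries, 8 genes were above 2000 per kb, namely Gapdh (6584 per kb), Pkm (5391), Ldhb (3086), Aldoa (3059), Ldha (2676), Tpi1 (2551), Eno1 (2383) and Pgk1 (2235). Gapdh makes the first step that yields reducing power, Pkm the last that yields ATP, and Ldha and Ldhb interconvert pyruvate and lactate. At the other end 10 genes were below 100 per kb. They were Slc2a3, the brain-type isoenzymes Aldoc and Eno2, Pfkp, the lowest at 26.4, the kinase genes Pfkfb2 and Pfkfb4, and 4 of the 6 hypoxia targets (Ankrd37, Egln3, Car9 and Ndrg1). The place of Pfkp rests on its exon length of 13401 bases, the longest of the group. Its mean of 354 normalized counts was above that of Ndrg1 (248), Car9 (74.6) and Ankrd37 (71.5). The 17 enzymes together took 0.501 and 0.672% of all counts in XY Kdm6b-null libraries, against 0.588 and 0.655% in XY wild type, while XX Kdm6b-null libraries had 0.612 and 0.607%, against 0.553 and 0.645% in XX wild type. In both sexes the ranges of the null and wild type libraries met or crossed, so that no shift of the pathway as a whole was seen beyond the spread between pools.

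**Figure D1:**
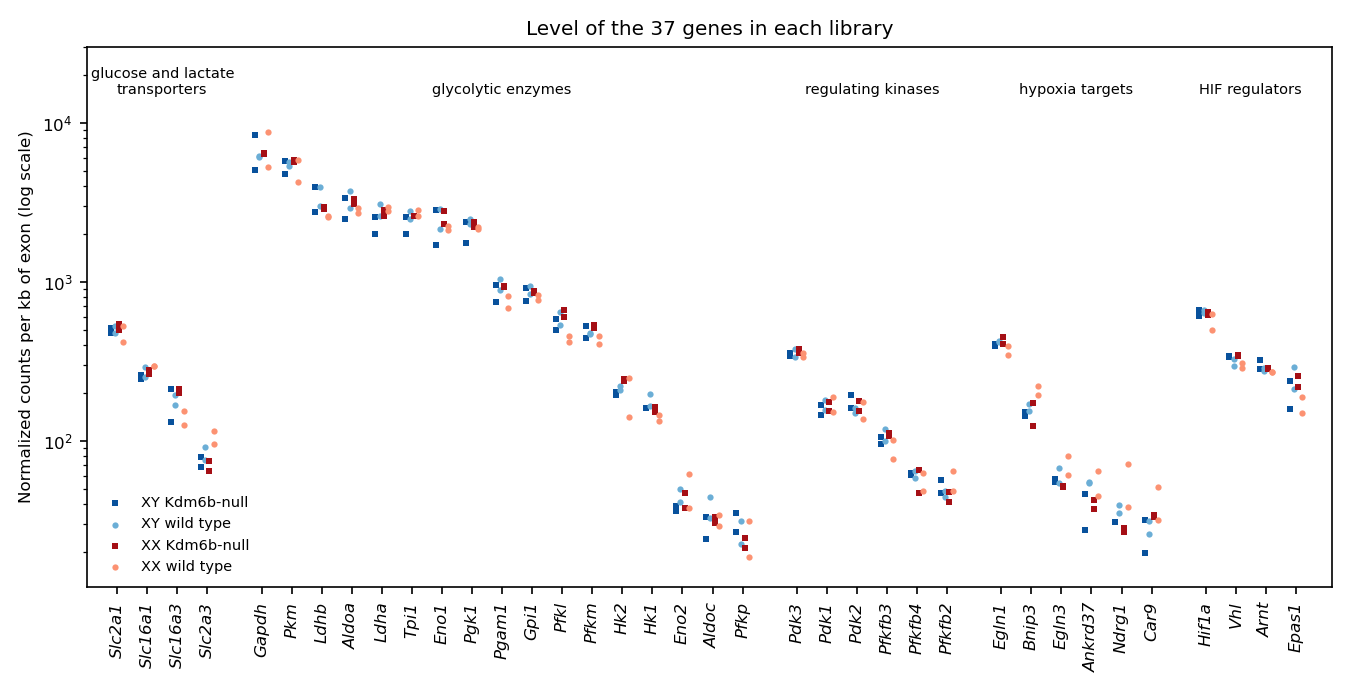
Normalized counts per kb of exon (log axis) of the 37 genes in each of the 8 libraries, ordered by role and coloured by group. The 8 genes with an average above 2000 per kb are all enzymes, and Pfkp, with the longest exon length, has the lowest average per kb at 26.4. The points of the 4 groups lie close together for most genes.

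The first question was whether any of the 37 differed between XY Kdm6b-null and XY wild type gonads, and none did by the test used. Tests were made with limma on log2(normalized count + 1) over all genes with a mean of at least 10, which all 37 passed in every comparison, with adjustment over all genes tested. Kdm6b itself was not called within either sex. Its log2 fold change was -1.54 in XY (limma adjusted p = 0.12) and -1.07 in XX (limma adjusted p = 0.19). With 2 libraries a group, the absence of a call therefore does not show the absence of a change. In XY limma called 0 of the 37 genes, against a background of 0% of 16821 genes, and 0 of the 37 had an unadjusted p under 0.05, against 834 genes or 4.96% of all. The signs nevertheless leaned one way. The log2 fold change was negative in 29 of the 37 genes, against 8414 of all 16821, and its median was -0.11, against 0.00 for all genes tested. Enzymes had a median of -0.17 with 14 of 17 negative, transporters -0.10 with 4 of 4 negative, and kinases -0.02 with 3 of 6 negative. Both null libraries were below both wild type libraries for 8 of the 37 genes, against 16.3% of all, and above them for 2, against 16.6%. The lean of the glycolytic genes came mostly with 1 library. XY Kdm6b-null replicate 1 was the lowest of all 8 libraries for Gpi1, Aldoa, Aldoc, Tpi1, Gapdh, Pgk1, Eno1, Ldha, Slc16a1, Pdk1 and Ankrd37. Relative to the wild type mean its median over the 27 glycolytic genes was -0.22, against 0.00 in XY Kdm6b-null replicate 2. The hypoxia targets did not follow that order, with medians of -0.10 in null replicate 1 and -0.21 in null replicate 2. The median of the 37 was -0.01 without null replicate 1 and -0.04 without wild type replicate 2. Markers of supporting cells, the precursors of Sertoli cells in XY, were negative in 10 of 11 tested members. The list also holds Wnt4, Fst and Foxl2. Both null libraries were below both wild type libraries for 7 of the 11, against 16.3% of all. Sox9 overlapped, with 1021 and 495 normalized counts in XY Kdm6b-null, against 910 and 767 in XY wild type. The summed level of the list was 3548 and 4605 normalized counts in XY Kdm6b-null, against 5163 and 5388 in XY wild type. The part of these markers in the enzyme values was not tested.

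In XX gonads the enzymes leaned the other way. There the log2 fold change was positive in 12 of 17 enzymes, with a median of 0.17, and in 23 of the 37 genes, against 8533 of all 17028, with a median of 0.08, against 0.00 for all genes tested. Again limma called 0 of the 37, against 0% of 17028 genes. An unadjusted p under 0.05 was found for 5 genes that were higher in the null (Slc16a3, Pfkl, Pfkm, Pgam1 and Epas1), or 13.5% of the 37 against 9.34% of all genes. It was found for 3 that were lower (Slc2a3, Bnip3 and Ndrg1), or 8.11% against 4.65%. Both null libraries were above both wild type libraries for 9 of the 17 enzymes (Hk1, Gpi1, Pfkl, Pfkm, Aldoa, Pgk1, Pgam1, Eno1 and Ldhb), against 27.0% of all genes, and below them for none. Without XX wild type replicate 1 the median was 0.12 for the enzymes and 0.09 for the 37. The count for all 37 was 15 above, 7 below and 15 overlapping, and the background for below was 22.5%.

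**Figure D2:**
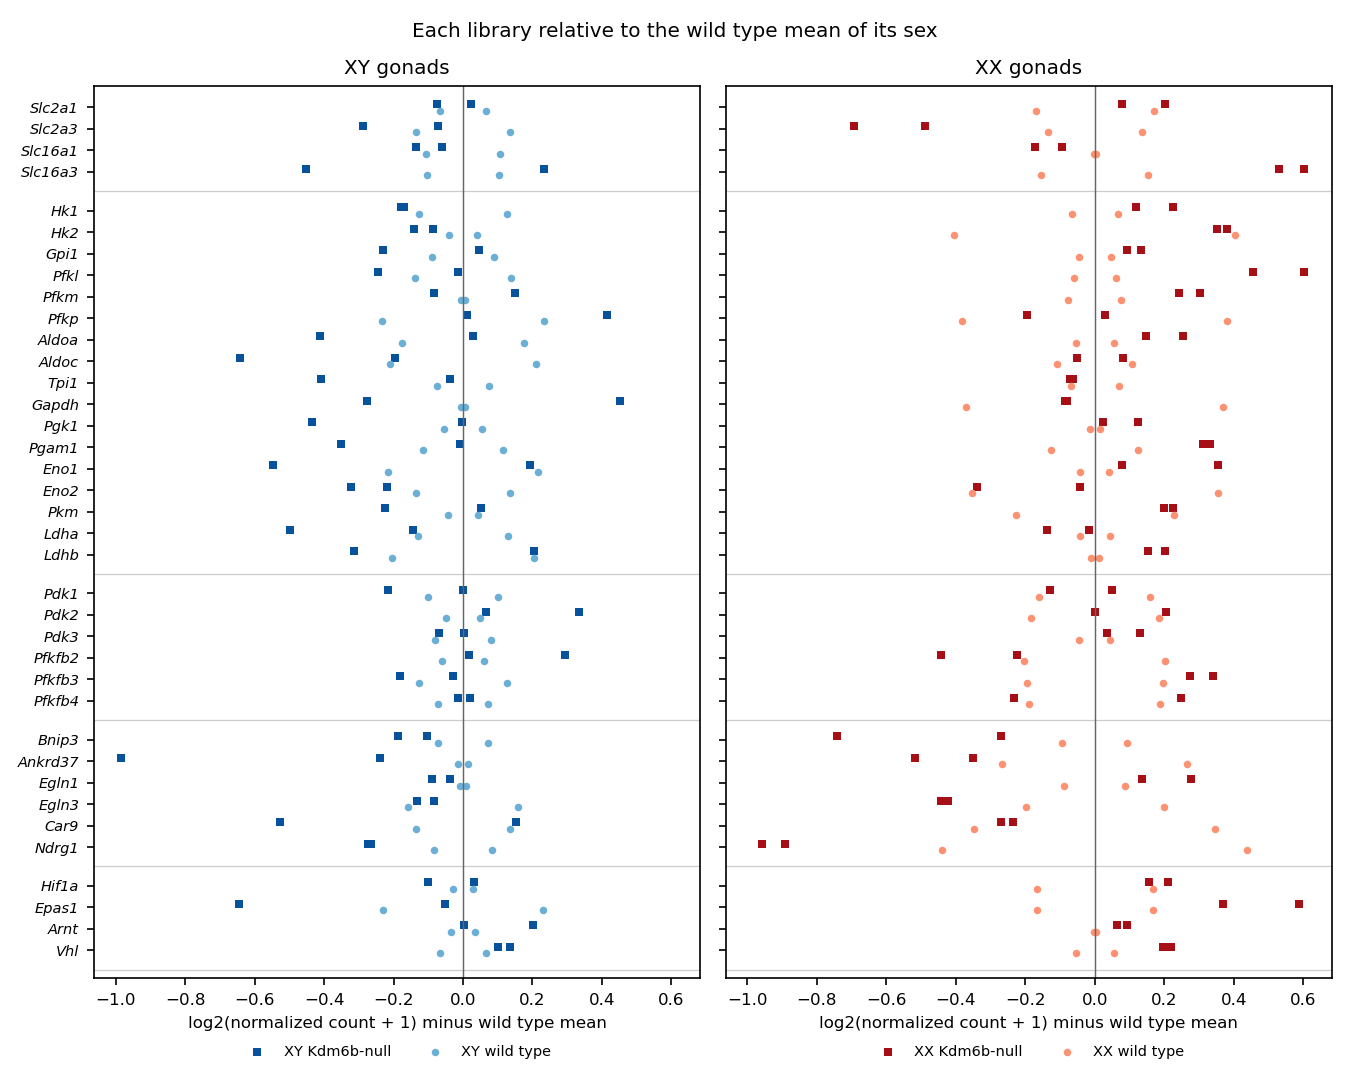
Log2(normalized count + 1) of each library minus the wild type mean of its sex, for the 37 genes grouped by role from transporters at the top to HIF regulators at the bottom, with XY gonads on the left and XX gonads on the right. Squares are Kdm6b-null and circles wild type libraries. In XY many enzymes have 1 null library far to the left and the other near the wild type mean, and in XX the Ndrg1 and Slc2a3 squares lie left of their circles.

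Glucose enters cells through the transporters encoded by Slc2a1 and Slc2a3. Slc2a1, the widely expressed form, had 1671 and 1788 normalized counts in XY Kdm6b-null libraries, against 1682 and 1844 in XY wild type, while XX Kdm6b-null libraries had 1890.4 and 1733, against 1460.1 and 1846 in XX wild type. Its groups overlapped in both sexes, and the log2 fold change was -0.03 (95% interval -0.24 to 0.18) in XY and 0.14 (-0.21 to 0.50) in XX. Slc2a3, a high-affinity form, had 576 and 495 normalized counts in XY Kdm6b-null libraries, against 665 and 550.3 in XY wild type. Its XX values were 540.1 and 469 counts in Kdm6b-null libraries, against 691 and 832 in wild type, so that both null libraries lay below both wild type ones. The log2 fold change of Slc2a3 was -0.59 (SE 0.14) in XX, with limma adjusted p = 0.26, and -0.18 (SE 0.14) in XY. Without XX wild type replicate 1 the XX value was -0.73, in a fit where the lone wild type library is assumed to vary like the rest. That contrast between the sexes did not pass when tested (XY minus XX 0.41, SE 0.21, limma adjusted p = 0.62).

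Lactate leaves through the monocarboxylate transporters encoded by Slc16a1 and Slc16a3. Slc16a3, the form typical of glycolytic cells, had 698 and 1123 normalized counts in XY Kdm6b-null libraries, against 889 and 1028 in XY wild type. The XY null libraries lay on either side of the wild type pair. The XX values were 1123 and 1069 counts in Kdm6b-null libraries, against 665 and 823 in wild type, with no overlap. That is 147% of the wild type mean, with a log2 fold change of 0.57 (SE 0.13) and limma adjusted p = 0.26. It was 0.41 without XX wild type replicate 1, the library with the lowest value of the 8. Slc16a1 ranged only from 1087 to 1314 counts over the 8 libraries.

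The first committed step of glycolysis is made by phosphofructokinase, whose subunits are encoded by Pfkl, Pfkm and Pfkp. Pfkl, the liver-type subunit, had 3305 and 3872 normalized counts in XY Kdm6b-null libraries, against 3551 and 4309.6 in XY wild type. In XX gonads Pfkl had 4420.5 and 3989 counts in Kdm6b-null libraries, against 2789 and 3035 in wild type. Both XX null libraries were thus well above the wild type pair, at 144% of its mean, while the XY groups overlapped. By limma the log2 fold change was 0.53 (SE 0.11, limma adjusted p = 0.26) in XX and -0.13 (SE 0.13) in XY, and XY minus XX was -0.66 (SE 0.18, limma adjusted p = 0.57). In the authors' deposited table Pfkl was the only 1 of the 37 with a DESeq2 adjusted p under 0.05 in XX (log2 fold change 0.53, adjusted p = 0.0088), where 407 of 14704 genes, or 2.77%, passed. Without XX wild type replicate 1 the limma value was 0.47 and without XX wild type replicate 2 it was 0.59.

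Pfkm, the muscle-type subunit, had 1774 and 1701 normalized counts in XX Kdm6b-null libraries, against 1362 and 1515 in XX wild type, a log2 fold change of 0.27 (SE 0.10), or 0.20 without XX wild type replicate 1. In XY it had 1488 and 1749.8 counts in Kdm6b-null libraries, against 1583 and 1573 in wild type (0.03, SE 0.10). Pfkp, the platelet-type subunit, overlapped in both sexes. Pfkl made up 54.4 and 53.0% of the phosphofructokinase transcripts per kb in XX Kdm6b-null libraries, against 48.8 and 49.1% in XX wild type. In XY the Pfkl share was 50.7 and 51.3% in Kdm6b-null libraries, against 51.7 and 56.2% in wild type. Pfkm overlaps Senp1 on the opposite strand and Pfkp overlaps Pitrm1, which is itself counted at 902% of Pfkp. Whether counting used the strand is not stated in the sources used here, so the split between such partners is uncertain.

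Pgam1, the phosphoglycerate mutase of the lower pathway, showed the same layout as Pfkl. It had 1837 and 1863 normalized counts in XX Kdm6b-null libraries, against 1356 and 1612 in XX wild type, while XY Kdm6b-null libraries had 1486 and 1884, against 1751 and 2055 in XY wild type. The log2 fold change of Pgam1 was 0.32 (SE 0.12, limma adjusted p = 0.34) in XX and -0.18 (SE 0.14) in XY, and XY minus XX was -0.50 (SE 0.20, limma adjusted p = 0.59). Without XX wild type replicate 1 the XX value was 0.20.

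Hk2, the inducible hexokinase that traps glucose in the cell, had 1163 and 1208 normalized counts in XY Kdm6b-null libraries, against 1319.7 and 1248 in XY wild type. For XX the values were 1423 and 1451 counts in Kdm6b-null libraries, against 842 and 1476 in wild type. The XX difference (log2 fold change 0.37, SE 0.26) thus lay in 1 low wild type library, and without it the value was -0.04. Hk1, the constitutive hexokinase, had both XY null libraries (1369 and 1375 counts) below the wild type pair (1418 and 1691) and both XX null libraries (1393 and 1294) above the wild type pair (1137 and 1247). Hk1 and Egln1 were the 2 members, or 5.41% of the 37, placed below in XY and above in XX, against 2.60% of all genes.

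**Figure D3:**
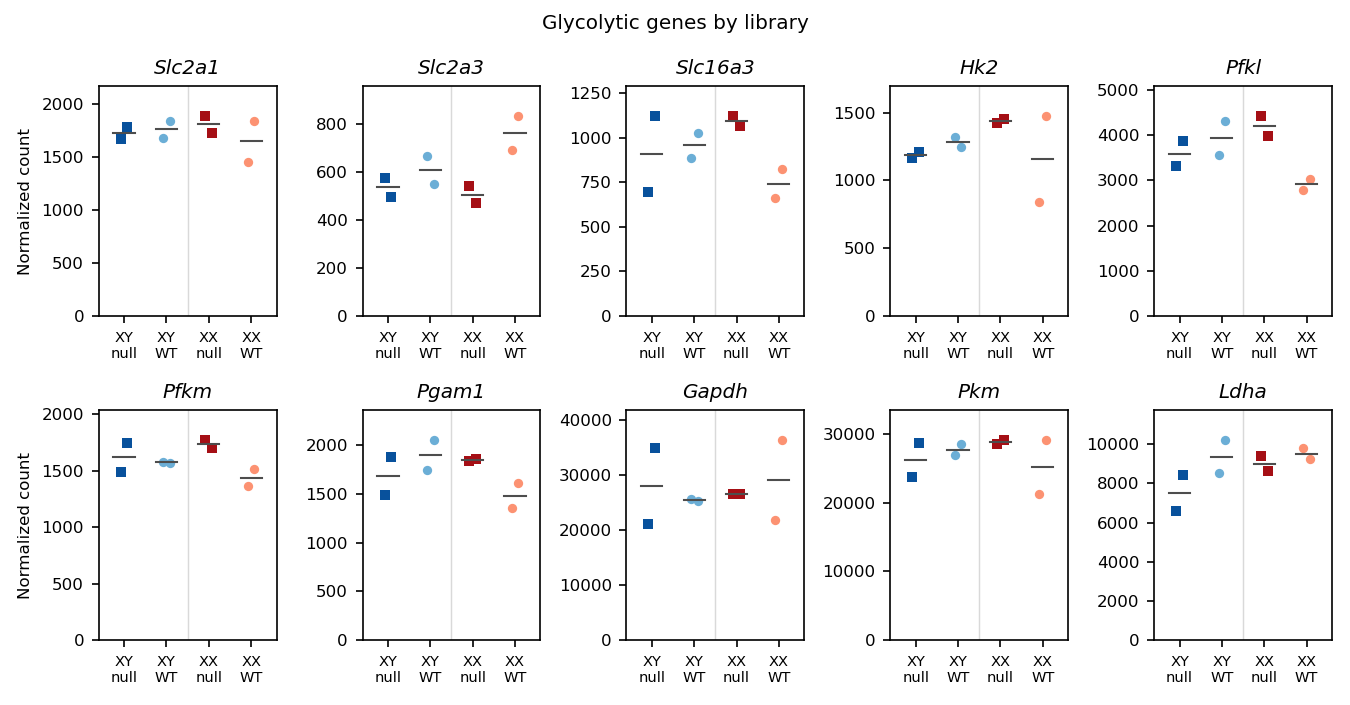
Normalized counts of 10 glycolytic genes in each library, with the group mean as a bar and Kdm6b-null left of wild type in each sex. Pfkl, Slc16a3 and Pgam1 have both XX null libraries above the XX wild type pair, and Gapdh has 1 high and 1 low library within XY Kdm6b-null and within XX wild type.

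Gapdh, the most abundant gene of the group, varied more between replicates than between genotypes. It had 20982 and 34777 normalized counts in XY Kdm6b-null libraries, against 25515 and 25316 in XY wild type, while XX Kdm6b-null libraries had 26586 and 26489, against 21738 and 36304 in XX wild type. Its log2 fold change was 0.09 (SE 0.24) in XY and -0.08 (SE 0.27) in XX, and the XY value was -0.28 without null replicate 2 and 0.45 without null replicate 1. Pkm, the pyruvate kinase gene, had 23669.7 and 28657 counts in XY Kdm6b-null libraries, against 26856 and 28506 in XY wild type. In XX it had 28564 and 29068 counts in Kdm6b-null libraries, against 21252 and 29100.5 in wild type, and these groups overlapped as well. Pgk1, whose enzyme makes the first ATP of the pathway, had 3964 and 5346 counts in XY Kdm6b-null libraries, against 5150 and 5565 in XY wild type. In XX Pgk1 had 4974 and 5337 counts in Kdm6b-null libraries, against 4846 and 4940 in wild type. Its log2 fold change was -0.22 (SE 0.15) in XY, with overlap, and 0.07 (SE 0.10) in XX. Without null replicate 1 the XY value was 0.00. Eno1, an enolase gene, has a near-identical copy, Eno1b, so its own count is uncertain. Eno1 and Eno1b summed to 10775 and 16440 counts in XY Kdm6b-null libraries, against 13620 and 16726 in XY wild type, and to 14930.5 and 16186 in XX Kdm6b-null libraries, against 12340 and 14465 in XX wild type.

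Ldha encodes the lactate dehydrogenase subunit that favours making lactate, and Ldhb the subunit that favours using it. Ldha had 6613 and 8449.5 normalized counts in XY Kdm6b-null libraries, against 8525 and 10220.3 in XY wild type. Its XX values were 9392 and 8646 counts in Kdm6b-null libraries, against 9790.0 and 9225 in wild type. The XY null pair lay just below the wild type pair, with the upper null library close to the lower wild type one, and the XX groups overlapped. On the log2 scale the fold change was -0.32 (SE 0.15, limma adjusted p = 0.999) in XY and -0.08 (SE 0.12) in XX. The XY value was -0.14 without null replicate 1, -0.50 without null replicate 2 and -0.19 without wild type replicate 2, and the XX value -0.03 without wild type replicate 1. In the authors' deposited table Ldha was the only 1 of the 37 with an unadjusted p under 0.05 in XY (0.0398), and none had an adjusted p under 0.05, where 72 of 17890 genes, or 0.402%, passed.

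Set against Ldhb within the same library, Ldha was lower in the null in both sexes. Such a share does not depend on the scaling of the library. Its level does depend on the exon lengths used, which also count exons of rare transcripts. Ldha made up 42.0 and 39.2% of Ldha and Ldhb transcripts per kb in XY Kdm6b-null libraries, against 46.3 and 43.8% in XY wild type, while XX Kdm6b-null libraries had 48.8 and 47.6%, against 53.6 and 51.7% in XX wild type. XY Kdm6b-null gonads averaged 40.6 ± 1.97%, against 45.1 ± 1.76% for XY wild type, and XX Kdm6b-null gonads 48.2 ± 0.855%, against 52.6 ± 1.34% for XX wild type (SD, n = 2 each). The groups did not overlap in either sex, and all 4 XY libraries were below all 4 XX libraries. The difference between null and wild type was -4.50 percentage points in XY and -4.39 in XX. A two-sided exact permutation test within sex gave p = 0.0556, the smallest the 36 arrangements allow, and 0.306 after adjustment over the 11 shares computed. The 11 shares were chosen with earlier results of these data known, and the adjustment does not cover that choice. The other share at that smallest p was Aldoa in Aldoa and Aldoc, which moved by 0.150 percentage points. Slc2a3 made up 12.1 and 11.6% of Slc2a1 and Slc2a3 transcripts per kb in XX Kdm6b-null libraries, against 18.6 and 17.9% in XX wild type. In XY that share was 14.3 and 11.8% in Kdm6b-null libraries, against 16.1 and 12.6% in wild type, with overlap. Over both sexes the exact permutation p of the Slc2a3 share was 0.111, and 0.407 after adjustment.

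**Figure D4:**
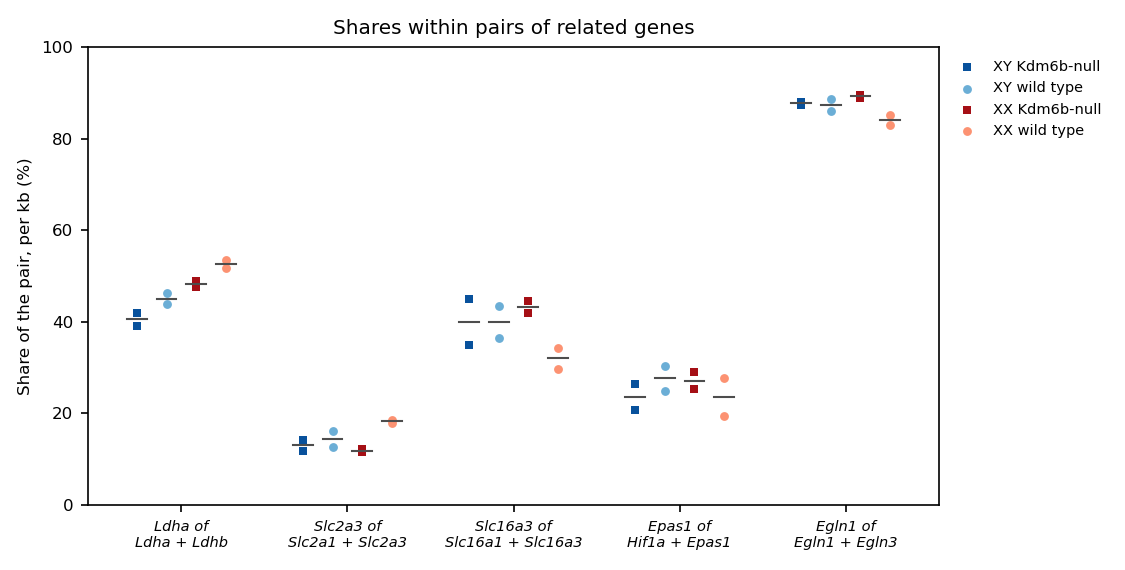
Share of 1 gene in a pair, in percent of transcripts per kb within each library, with Kdm6b-null left of wild type in each sex. The shares shown are those of Ldha, Slc2a3, Slc16a3, Epas1 and Egln1. For Ldha in Ldha and Ldhb both null libraries lie below both wild type libraries in XY (39.2 to 42.0% against 43.8 to 46.3%) and in XX (47.6 to 48.8% against 51.7 to 53.6%).

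Among the regulating kinases, the Pdk genes encode the enzymes that shut pyruvate dehydrogenase and the Pfkfb genes those that set the level of the phosphofructokinase activator. Pdk1, a HIF target, had 1126 and 1308 normalized counts in XY Kdm6b-null libraries, against 1221 and 1402 in XY wild type, while XX Kdm6b-null libraries had 1358 and 1201, against 1467 and 1175 in XX wild type. It overlapped in both sexes, with a log2 fold change of -0.11 (95% interval -0.39 to 0.18) in XY and -0.04 (-0.40 to 0.32) in XX. The other kinases had log2 fold changes between -0.10 for Pfkfb3 and 0.20 for Pdk2 in XY, and between -0.33 for Pfkfb2 and 0.31 for Pfkfb3 in XX. These XX values were -0.13 for Pfkfb2 and 0.11 for Pfkfb3 without XX wild type replicate 1. None of the 6 had an unadjusted p under 0.05 in either sex. Pfkfb2 overlaps Yod1 on the opposite strand.

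Most hypoxia targets had negative values in both sexes, though none passed the test. In XY the log2 fold change was negative in 6 of 6, with a median of -0.17, and in XX in 5 of 6, with a median of -0.43, or -0.29 without XX wild type replicate 1. The exception in XX was Egln1. Both null libraries were below both wild type libraries for 4 of 6 in XY (Bnip3, Ankrd37, Egln1 and Ndrg1), against 16.3% of all genes, and for 4 of 6 in XX (Bnip3, Ankrd37, Egln3 and Ndrg1), against 22.5%. Bnip3, Ankrd37 and Ndrg1 were below in both sexes, or 8.11% of the 37 genes against 5.02% of all. Averaged over the sexes in 1 fit, limma called 0 of the 37, against 0.0354% of 16943 genes, or 6 genes, among them Kdm6b. An unadjusted p under 0.05 for that mean effect was found for 4 lower members (Slc2a3, Bnip3, Ankrd37 and Ndrg1), or 10.8% against 5.39% of all genes, and for 1 higher member, Vhl, against 9.05%.

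Ndrg1, a stress-response gene induced by low oxygen, had 203 and 204 normalized counts in XY Kdm6b-null libraries, against 260.2 and 231 in XY wild type. The XX values were 185 and 177 counts in Kdm6b-null libraries, against 468 and 254 in wild type. The 4 null libraries held close to 200 counts or less and the 4 wild type libraries more than that, with XX wild type replicate 1 far above the rest. The log2 fold change was -0.27 (SE 0.14) in XY and -0.93 (SE 0.30, limma adjusted p = 0.31) in XX. Leaving out XX wild type replicate 1 gave -0.49 in XX, and leaving out replicate 2 gave -1.36. The mean effect was -0.60 (SE 0.18, limma adjusted p = 0.24), while in XX the authors' deposited table has -0.99 (DESeq2 adjusted p = 0.086).

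Bnip3, which drives the removal of mitochondria, had 342 and 323 normalized counts in XY Kdm6b-null libraries, against 387 and 349.9 in XY wild type. For XX the values were 391 and 281 counts in Kdm6b-null libraries, against 503 and 441 in wild type. The XY groups were close to touching, and the XX groups lay further apart. By limma the log2 fold change was -0.14 (SE 0.12) in XY and -0.51 (SE 0.19, limma adjusted p = 0.35) in XX, with a mean effect of -0.33 (SE 0.12, limma adjusted p = 0.29). Ankrd37, a small ankyrin repeat gene used as a hypoxia marker, had 41.9 and 71.0 counts in XY Kdm6b-null libraries, against 83.1 and 84.7 in XY wild type. In XX it had 64.8 and 57.6 counts in Kdm6b-null libraries, against 99.9 and 68.8 in wild type. Every null library lay below every wild type library of its sex, and the mean effect was -0.52 (SE 0.22, limma adjusted p = 0.33). Ankrd37 overlaps Ufsp2 on the opposite strand, which is counted at 886% of its level, so its own count is uncertain.

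Egln3, an oxygen-sensing hydroxylase that HIF itself induces, had 152 and 147 normalized counts in XY Kdm6b-null libraries, against 180.0 and 145 in XY wild type. Its XX values were 137 and 138 counts in Kdm6b-null libraries, against 162 and 213 in wild type. Its groups overlapped in XY (log2 fold change -0.11, SE 0.18) and did not in XX (-0.43, SE 0.20, limma adjusted p = 0.40). The XX value was -0.63 without wild type replicate 1 and -0.24 without wild type replicate 2. Egln1, the main oxygen-sensing hydroxylase, had 1418 and 1469 counts in XY Kdm6b-null libraries, against 1499 and 1517 in XY wild type. The XX values were 1459.9 and 1609 counts in Kdm6b-null libraries, against 1251 and 1412 in wild type. The XY null pair was below and the XX null pair above, by 0.21 in log2 fold change and by 0.12 without XX wild type replicate 1, and XY minus XX was -0.27 (SE 0.13, limma adjusted p = 0.61). Car9, a carbonic anhydrase of the cell surface, had 73.2 and 45.3 counts in XY Kdm6b-null libraries, against 72.2 and 59.8 in XY wild type. In XX Car9 had 78.7 and 76.8 counts in Kdm6b-null libraries, against 118 and 72.8 in wild type. Both sexes overlapped.

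**Figure D5:**
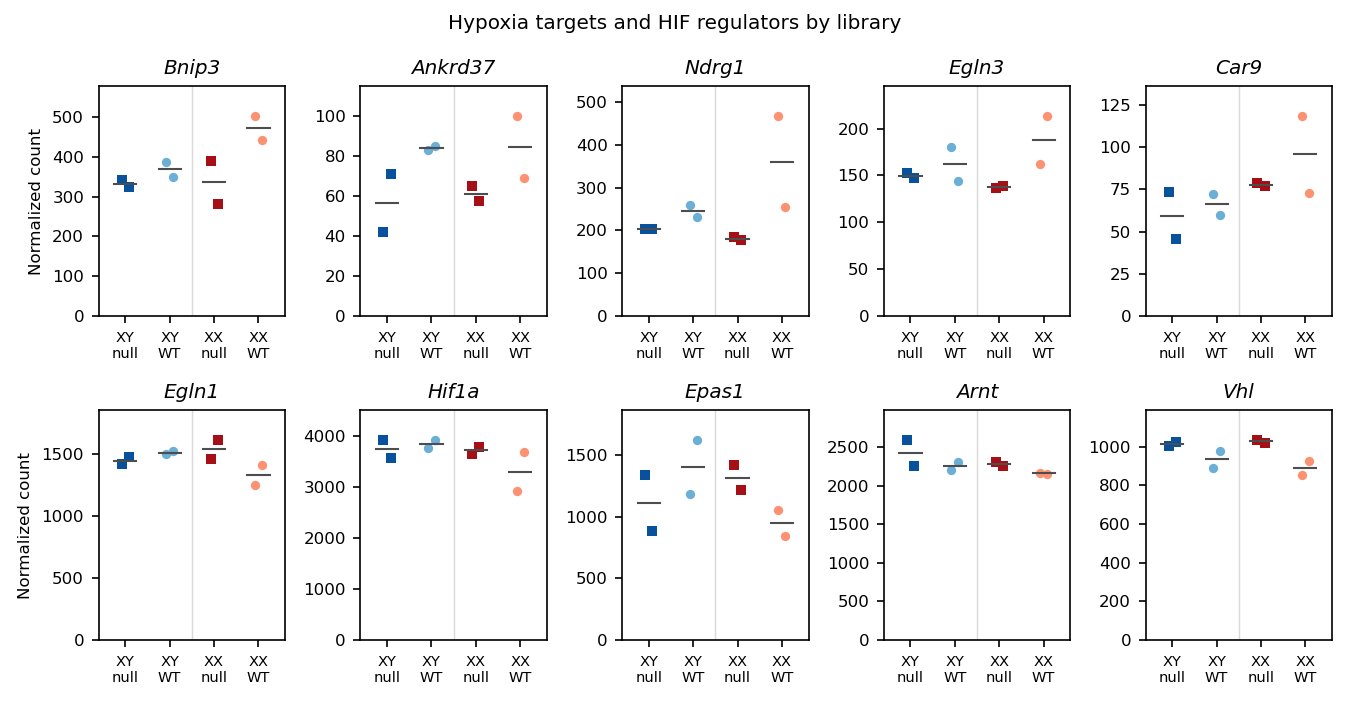
Normalized counts of the hypoxia targets and HIF regulators in each library, with the group mean as a bar and Kdm6b-null left of wild type in each sex. Ndrg1, Bnip3 and Ankrd37 have both null libraries below both wild type libraries in each sex, Vhl has them above, and XX wild type replicate 1 is the highest point for Ndrg1 at 468.

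XX wild type replicate 1, the library with adrenal genes, was the highest of the 8 for 9 members (Ndrg1, Car9, Bnip3, Ankrd37, Slc16a1, Tpi1, Eno2, Pdk1 and Pfkfb2). It was the lowest for 14 members (Slc2a1, Slc16a3, Hk1, Hk2, Pfkl, Pfkm, Pgam1, Pkm, Ldhb, Pdk3, Pfkfb3, Egln1, Hif1a and Vhl). Its mitochondrial genes took 3.12% of counts, against 1.90% in the lowest library. The part of these features in the XX results was not tested. Bnip3 and Ndrg1 had XX values of -0.41 and -0.49 without it, Ankrd37 of -0.17, and Pfkl and Slc16a3 of 0.47 and 0.41. Leaving out XX wild type replicate 1 or replicate 2 leaves 1 wild type library, with no spread of its own. Many genes over the whole set were called in those fits, so members called in them are not listed. The XX value of Slc2a3 was -0.73 without replicate 1 and -0.46 without replicate 2.

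The HIF subunit genes were well expressed, and with all libraries none passed in any comparison. Hif1a had 3924 and 3579 normalized counts in XY Kdm6b-null libraries, against 3761 and 3922 in XY wild type, while XX Kdm6b-null libraries had 3657 and 3796, against 2923 and 3685 in XX wild type. Its groups overlapped in both sexes, with a log2 fold change of -0.04 (95% interval -0.24 to 0.16) in XY and 0.18 (-0.16 to 0.53) in XX. The XX value of Hif1a was 0.02 without wild type replicate 1 and 0.35 without wild type replicate 2. Epas1, the alpha subunit typical of vessels, had 1337 and 885 counts in XY Kdm6b-null libraries, against 1182 and 1624 in XY wild type. For XX the values were 1419 and 1217 counts in Kdm6b-null libraries, against 1058 and 841 in wild type. The XY groups overlapped and the XX null libraries were both above the wild type pair. On the log2 scale the fold change was -0.35 (SE 0.24) in XY and 0.48 (SE 0.15, limma adjusted p = 0.31) in XX, and XY minus XX was -0.83 (SE 0.32, limma adjusted p = 0.59). The XY value of Epas1 was -0.65 without null replicate 1, -0.05 without null replicate 2, -0.58 without wild type replicate 1 and -0.12 without wild type replicate 2. Its XX value was 0.64 without wild type replicate 1 and 0.31 without wild type replicate 2.

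Endothelial markers mostly had the same signs as Epas1. In XX 12 of 12 such genes had a positive log2 fold change, with a median of 0.41. Their summed level was 20562 and 20129 normalized counts in XX Kdm6b-null, against 13615 and 15024 in XX wild type. In XY 10 of 12 were negative, with a median of -0.21 and sums of 18518 and 17045 in Kdm6b-null, against 17579 and 23189 in wild type. None of the 12 was at 0 in any library, and their part in the Epas1 values was not tested. Erythroid markers also differed, with 11 of 13 negative in XX and sums of 124304 and 117055 in Kdm6b-null, against 195736 and 252512 in wild type. In XY 12 of 13 were positive, with sums of 72150.5 and 216381 in Kdm6b-null, against 62254 and 105840 in wild type. Macrophage, germ cell, mesonephric, neural crest, gonadal somatic and supporting cell markers were counted as well, and their medians in XX were -0.27, -0.40, 0.38, -0.26, 0.14 and 0.14. The germ cell value lay within a wide wild type spread. Relative to the wild type mean the germ cell medians were -0.28 and -0.37 in XX Kdm6b-null libraries. They were 0.90 in XX wild type replicate 1 and -0.90 in replicate 2. In XY the medians in the same order were 0.28, 0.29, 0.01, -0.15, -0.27 and -0.84. The adrenal cortex median was -1.29 in XX and 0.05 in XY.

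Vhl, which encodes the ubiquitin ligase part that removes HIF alpha, was the 1 member with all null libraries above wild type in both sexes, against 6.28% of all genes. It had 1002 and 1025 normalized counts in XY Kdm6b-null libraries, against 891 and 978 in XY wild type, while XX Kdm6b-null libraries had 1034 and 1019, against 856 and 924 in XX wild type. The log2 fold change was 0.12 (SE 0.09) in XY and 0.21 (SE 0.10) in XX, or 0.15 without XX wild type replicate 1, with a mean effect of 0.16 (SE 0.06, limma adjusted p = 0.30). Arnt, the stable partner, ranged from 2158 to 2595 counts over the 8 libraries, with a log2 fold change of 0.10 in XY and 0.08 in XX.

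The difference between the sexes was tested as the XY effect minus the XX effect. Limma called 0 of the 37, against 0% of 16943 genes. The difference was negative in 15 of 17 enzymes with a median of -0.29, and in 26 of the 37 genes with a median of -0.18, against 8810 negative of 16943 and a median of -0.02 over all genes. An unadjusted p under 0.05 was found for 3 members, all negative (Pfkl, Pgam1 and Epas1), or 8.11% against 5.71% of all genes, and for 0 positive ones. For the hypoxia targets the difference had a median of 0.20 with 2 of 6 negative.

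Other genes of these pathways were read from 3 lists. In XY limma called 0 of 32 other glycolytic and pyruvate genes, 0 of 34 other HIF targets and 0 of 15 other HIF pathway components, and in XX 0 of 33, 0 of 34 and 0 of 15. In XY the other HIF targets had a median of -0.12 with 25 of 34 negative, and in XX -0.02 with 18 of 34 negative. The smallest unadjusted p-values among them in XY belonged to Stc2, a secreted glycoprotein gene (log2 fold change -0.87), Adm, which encodes the vessel-relaxing peptide adrenomedullin (-1.30), and the clock repressor Bhlhe41 (-1.08). Stc2 had 72.2 and 66.9 normalized counts in XY Kdm6b-null libraries, against 143 and 115 in XY wild type, while XX Kdm6b-null libraries had 63.8 and 78.8, against 109.6 and 100.1 in XX wild type. Every null library of Stc2 was below every wild type library, with a mean effect of -0.72 (SE 0.15, limma adjusted p = 0.17). Adm had 44.9 and 83.4 counts in XY Kdm6b-null libraries, against 124 and 187 in XY wild type.

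In XX the smallest p-values among the other targets were those of Cited2 (0.59), whose product competes with HIF for its coactivators, and of the collagen crosslinking enzymes Lox (-1.80) and Loxl2 (0.58). Cited2 had 1276 and 1264 normalized counts in XX Kdm6b-null libraries, against 839 and 849.7 in XX wild type, a clear gap, and 1269 and 1345 in XY Kdm6b-null libraries, against 1135 and 1329.9 in XY wild type, with overlap. Its limma adjusted p was 0.22 in XX, the log2 fold change without XX wild type replicate 1 was 0.58 (-1.48 for Lox and 0.48 for Loxl2), and XY minus XX was -0.50 (SE 0.14, limma adjusted p = 0.57). For that difference Cited2, Loxl2 (-0.60) and the glycogen synthase gene Gys1 (-0.42) led the list. For the mean effect, Cited2 (0.34) and Stc2 were followed by the histone demethylase gene Kdm4b (0.23). Vegfa, the vessel growth factor, had 2679.5 and 3043 counts in XY Kdm6b-null libraries, against 3174 and 3516 in XY wild type, while XX Kdm6b-null libraries had 2804 and 2700.4, against 3787 and 2784 in XX wild type. Its log2 fold change was -0.23 (SE 0.10) in XY and -0.24 (SE 0.16) in XX, with overlap in XX, where it was -0.02 without wild type replicate 1. Bnip3l, the relative of Bnip3, had -0.02 in XY and -0.22 in XX.

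The other glycolytic and pyruvate genes had a median of -0.02 in XY and -0.03 in XX. Pdp1, which reopens pyruvate dehydrogenase, had both null libraries below wild type in each sex (337 and 309.8 normalized counts in XY Kdm6b-null, against 417 and 389.8 in XY wild type, while XX Kdm6b-null libraries had 359.7 and 359, against 453 and 425 in XX wild type). Its mean effect was -0.30 (SE 0.08, limma adjusted p = 0.20). The gluconeogenic gene Fbp2 (log2 fold change -2.51 in XX) was highest in XX wild type replicate 1, the library with adrenal genes, at 35.9 counts, and its value was -1.32 without it. Bpgm, which makes the red cell metabolite bisphosphoglycerate, had -0.44 in XX (-0.23 without wild type replicate 1), where erythroid markers were also lower, and the part of those markers in it was not tested. XY minus XX for Bpgm was 0.58, and for Dlat, a pyruvate dehydrogenase subunit gene, it was -0.30. In XY the pyruvate carboxylase gene Pcx had a log2 fold change of 0.22, and for the mean effect the insulin-responsive glucose transporter gene Slc2a4 had 0.37.

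Other HIF pathway components had a median of 0.05 in XY and 0.10 in XX. The histone acetyltransferases that serve as HIF coactivators had positive values in XX, at 0.41 (SE 0.11, limma adjusted p = 0.29) for Crebbp and 0.43 (SE 0.15, limma adjusted p = 0.32) for Ep300, as had the Arnt relative Arnt2 (0.30). Without XX wild type replicate 1 these were 0.39 for Crebbp, 0.26 for Ep300 and 0.26 for Arnt2. In XY 0 of 15 had an unadjusted limma p under 0.05. The smallest belonged to Siah2, a ubiquitin ligase that acts on the hydroxylases (0.36), the chaperone Hsp90aa1 (-0.18) and Arnt2 (0.15). For the difference, also with 0 of 15 under 0.05, the smallest belonged to Ep300 (-0.41), Crebbp (-0.28) and the asparagine hydroxylase gene Hif1an (-0.21). For the mean effect the smallest belonged to Crebbp (0.27), Siah2 (0.47) and Arnt2 (0.23).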

How the data were processed

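RNA of 8 pools of E11.5 gonads was sequenced with 100-base paired reads, and groups came from the sample titles. Per the submitters' processing notes, reads were handled with DESeq2 2.11.40.8, featureCounts 2.0.8, STAR 2.7.11 and cutadapt 4.9 on GRCm38 (mm10). What the authors deposited as signal are normalized gene counts, divided by 1 size factor per library, separately for the XX and XY tables. The authors' deposited tables of their own comparisons give log2 fold changes and p-values. They also deposited a Wald score, which was not used. All nonzero values were whole multiples of 1 step per library to within 1e-06 of it, taken as 1 count for the depths only. The limit for a value of 0 covers counting error only, and the 95% intervals are those of limma, from the spread between pools. Replicates of every group differed by more than sampling noise (median chi-square per gene 1.27 to 4.07).

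Differences were tested with limma (3.58.1, R 4.3.3) on values transformed as log2(normalized count + 1). The variance trend was on, and Benjamini-Hochberg adjusted p-values were held to 0.05. Fold changes on this scale understate changes of low genes. Genes with a mean of at least 10 over the libraries of a fit were kept (16821 in XY, 17028 in XX, 16943 for both). Genotype was the only term. Each sex was fitted alone, and the difference (XY effect minus XX effect) and the mean effect came from 1 fit of 8 libraries. Residual degrees of freedom were 2 within a sex and 4 in the joint fit. The design foresaw that counts might be recovered from the normalized values, but a screen did not separate steps near 1 from rounded values, so no count model was run. Shares used an exact permutation test within sex. The fits and the other scaling were checked on simulated counts with known changes and the same spread setting for every gene. That check covered the recovery of fold changes and of a scale factor. It did not cover the share test or the fits without a library. Alternatives were other pseudocounts (0.5 and 5), other filters, another scaling, the replicate number as a block, all 8 libraries in 1 fit, and leaving out each library. The 37 members, the other lists and the 11 shares were chosen with earlier results of these data known. Values in every library are given for members with an unadjusted p under 0.05 in any comparison, for those whose groups did not overlap in both sexes, and for Hif1a, Epas1, Vhl, Slc2a1, Hk2, Gapdh, Pkm, Ldha, Pdk1, Car9, Egln3 and Kdm6b whatever their result. Of the other lists the 3 smallest p-values per comparison are named, with Vegfa and Bnip3l, except for 1 gene that is not reported here. Ero1a was not matched by symbol, and Elob and Eloc were matched by gene ID.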

Additional observations from a re-analysis of the deposited data

Results flagged for a closer look

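Hk1, the constitutive hexokinase gene, and Egln1, the main HIF prolyl hydroxylase gene, had effects of opposite direction in the sexes, with both Kdm6b-null libraries below wild type in XY and both above it in XX. The XY effect minus the XX effect was -0.35 for Hk1 (SE 0.15, unadjusted p = 0.0502, limma adjusted p = 0.59) and -0.27 for Egln1 (SE 0.13, unadjusted p = 0.0746, limma adjusted p = 0.61), so neither difference passed. The same layout was found for 440 genes, or 2.60% of 16943, and for 2 of the 37 members, or 5.41%. Groups of 2 libraries are too small to look for outlying samples.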

How the results depend on the processing

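With 2 libraries a group, a single pool decides many values. No member was called by limma under another pseudocount, filter or scaling, with all 8 libraries in 1 fit, or with the replicate block. Genes called over all genes were 0 in XY (23 with the replicate block), 0 in XX (2 with the block, 10 with all 8 libraries in 1 fit), and 6 for the mean effect (0 with the block, 1 with no filter, 1 with a filter at 50). Deviations of same-numbered libraries from their group means correlated at 0.24 in XY and -0.06 in XX. The labels do not pair the libraries, so they were not treated as pairs. Calls among all genes lost or gained in these fits have no tested cause.

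Leaving out each library in turn, genes called ranged over 0 to 2 in XY, 0 to 3489 in XX, 0 to 29 for the difference and 0 to 1261 for the mean effect. Members called ranged over 0 to 11 of the 37 in XX and 0 to 2 for the mean effect, and 0 in XY and for the difference. The 11 and the 2 came without XX wild type replicate 2, which leaves XX wild type with the library that held adrenal genes. Genes called over all genes reached 3489 of 17028 in XX and 1261 of 16943 for the mean effect. The 11 and the 2 are therefore not read as results for single members. Fits with 1 library in a group assume that it varies like the others. For XY, the median of the 37 ranged over -0.18 to -0.010, the glycolytic median over -0.22 to 0.0027 and the hypoxia and HIF median over -0.17 to -0.067. For XX, the median of the 37 ranged over 0.064 to 0.13 and the hypoxia and HIF median over -0.10 to 0.049. For the difference, the median of the 37 ranged over -0.29 to -0.074, the glycolytic median over -0.35 to -0.076 and the hypoxia and HIF median over -0.083 to 0.059. For the mean effect the hypoxia and HIF median ranged over -0.18 to 0.0040. Leaving out 1 library turned the direction of 19 of the 37 members in XY, 12 in XX, 13 for the difference and 18 for the mean effect. Of those with values in every library these were, in XY, Slc2a1 (-0.094 to 0.039), Slc16a3 (-0.45 to 0.23), Pfkl (-0.27 to 0.010), Pfkm (-0.084 to 0.15), Gapdh (-0.28 to 0.45), Pkm (-0.23 to 0.051), Pdk1 (-0.22 to 0.00019), Egln3 (-0.27 to 0.050), Car9 (-0.53 to 0.15) and Hif1a (-0.10 to 0.031). In XX they were Slc2a1 (-0.029 to 0.31), Hk2 (-0.039 to 0.77), Gapdh (-0.45 to 0.29), Pkm (-0.014 to 0.44), Pdk1 (-0.20 to 0.12) and Car9 (-0.60 to 0.093). Under the other alternatives, directions turned for Pfkfb4 in XX and for the difference, and for Aldoa, Gapdh and Pfkfb4 for the mean effect, all with the other scaling.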
